A study of Secale cereale x Triticum turgidum subsp. durum with 39 samples.

Results

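Stigmas were compared with ovaries of triticale at the tricellular pollen stage (TCP), the last stage at which both organs were sampled and the one closest to pollen shedding. The comparison used 6 of the 39 arrays of the series, 3 of stigma TCP and 3 of ovary TCP, chosen by the organ and stage in their titles. Triticale is a cereal bred by crossing wheat with rye; the labels give the organism as Secale cereale x Triticum turgidum subsp. durum and the cultivar as Alta, grown untreated in a controlled chamber. The 3 arrays of each group are labelled as biological replicates, and the labels do not say how many flowers or plants each holds. Total RNA of both groups was extracted on CsCl and labelled with the one-cycle kit. The earlier stages of the same organs served for comparison, also with 3 arrays of each organ per stage: the tetrad (TET), uninucleate microspore (UNM) and bicellular pollen (BCP). Those stages were prepared with other kits, one set for TET and one for UNM and BCP, which both organs of a stage shared. Mature pollen grains (MPG) and anthers at TCP, 3 arrays each and prepared with the same kits as stigma and ovary TCP, served as a measure of what pollen contains.

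The grass stigma is a feathery organ whose receptive cells catch pollen, let it take up water and guide the pollen tube inward. The ovary below it encloses the ovule, and its wall is green in young cereal flowers. Stigma cells elongate late in flower development, and enzymes that rearrange the cell wall are known to act in elongating plant cells.

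Signals were log2 values of the wheat array, in which each probe set reports a transcript, and 61179 probe sets were tested after the array's own controls had been dropped. A probe set was called when its limma p-value, adjusted by the Benjamini-Hochberg method over all 61179, was under 0.05 and its log2 difference was at least 1, which is a 2-fold difference of signal. Every difference below is stigma minus ovary and is positive where stigma was higher. A mean of at least 8 is called bright and a mean under 6 dim. Where one organ was dim, the fold compares signals near background and says little of the ratio of transcripts. Sequence divergence between rye and wheat may also lower the signal of rye transcripts, and in samples of a whole organ fewer cells of a type and less RNA per cell cannot be told apart.

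Stigma arrays correlated with each other at r of 0.9913 or more across probe sets and with arrays of other groups at 0.9545 or less, and for ovary arrays these limits were 0.9936 and 0.9733. Bright probe sets made up 16.06% ± 0.16 of those on stigma arrays and 15.93% ± 0.42 of those on ovary arrays (SD, n = 3 each). The hybridisation controls averaged 10.52 in stigma and 10.40 in ovary, and the gap between the 3' and 5' probe sets of the sucrose synthase control was 4.69 in stigma and 4.59 in ovary. That of the ubiquitin control differed without overlap, at -2.30 to -2.10 in stigma and -1.91 to -1.87 in ovary. The poly-A control transcripts, added to the RNA before labelling in the standard protocol, averaged 5.95 ± 0.08 in stigma and 8.69 ± 0.21 in ovary (SD, n = 3 each). The part of the ubiquitin and poly-A gaps in the results was not tested.

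Stigmas and ovaries differed at TCP over many transcripts, in both directions. Of the probe sets tested, 3480 (5.69%) were called higher in stigma and 4279 (6.99%) were called lower, together 12.7%. XTH and FBP were the named genes called higher, and petC was the one called lower. FBP and petC both stood under photosynthesis in the planned gene lists, and they went opposite ways. Of the planned markers of stigma and green tissue, the platform table names XTH and petC alone. Both are results of this same comparison, and XTH averaged 9.82 in ovary too, so they are no separate check of the 2 organs. The differences were often large: 1096 of the higher and 1432 of the lower probe sets differed by at least 2 on the log2 scale, and 90 of the higher and 109 of the lower by at least 5. At 8 or more there were 14 higher probe sets and 0 lower ones. The median difference was 1.59 over the higher probe sets and -1.62 over the lower ones, against 0.05 over all tested.

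**Figure D1:**
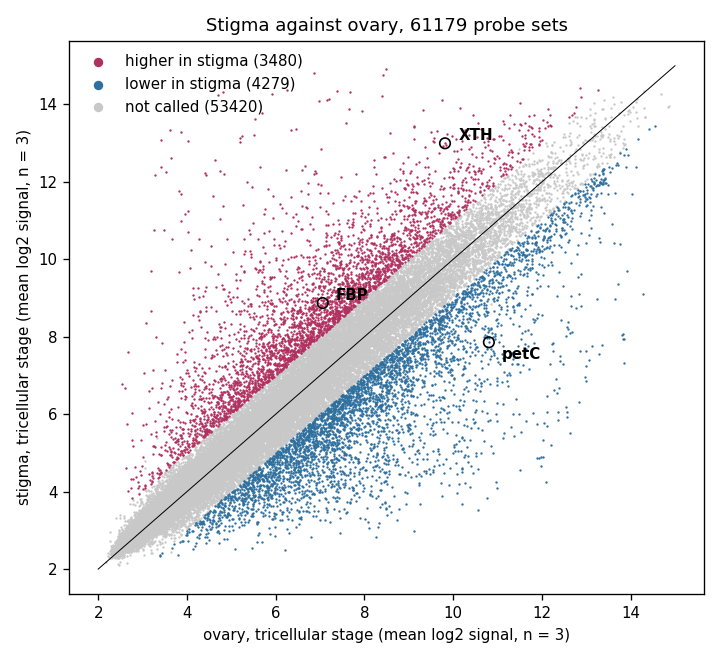
Mean log2 signal of each of 61179 probe sets in stigma (vertical axis) and ovary (horizontal axis) at the tricellular stage, n = 3 arrays each. The line marks equal signal; 3480 probe sets called higher in stigma lie above it and 4279 called lower lie below it, with XTH, FBP and petC circled.

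A part of the called probe sets was bright in one organ and dim in the other: 239 of the higher ones were bright in stigma and dim in ovary, and 356 of the lower ones were dim in stigma and bright in ovary. Of the higher probe sets, 1227 (35.3%) were dim in ovary, against 65.2% of all tested, and 303 of these were dim in stigma too. Of the lower probe sets, 2105 (49.2%) were dim in stigma, against 66% of all tested, and 594 of these were dim in ovary too. A mean of at least 10 in stigma with a dim ovary was found for 64 probe sets, and at least 10 in ovary with a dim stigma for 76. The 3 stigma arrays lay wholly above the 3 ovary arrays for 3470 of the 3480 higher probe sets, and wholly below them for 4269 of the 4279 lower ones. Over all 61179 probe sets the same held for 25.5% above and 21.1% below.

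XTH, a xyloglucan endotransglucosylase/hydrolase that cuts and rejoins the xyloglucan chains of the cell wall, was higher in stigma by several times the spread of the arrays. Its signal was 13.13, 12.998 and 12.86 in the 3 stigma arrays, against 9.88, 9.58 and 9.99 in the 3 ovary arrays. The groups did not overlap. The difference was 3.18 (SE 0.21, 9.07-fold; limma, Benjamini-Hochberg adjusted p = 9.2e-15).

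The XTH gap appeared late. At TET the stigma arrays read 7.95, 7.45 and 7.41 and the ovary arrays 8.18, 7.82 and 7.38, and at UNM the differences were again small, at -0.16 (SE 0.21; limma, Benjamini-Hochberg adjusted p = 0.77). At BCP the stigma arrays read 10.17, 11.13 and 10.61, against 8.89, 9.18 and 8.94 in ovary, so that stigma was already higher there. The difference at TCP exceeded that at BCP by 1.55 (SE 0.30; limma, Benjamini-Hochberg adjusted p = 0.00021). XTH averaged 6.34 in mature pollen.

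FBP, a fructose bisphosphatase, which takes a phosphate from fructose bisphosphate in sugar synthesis, was higher in stigma as well. It read 8.79, 8.69 and 9.14 in stigma arrays and 7.02, 7.0 and 7.16 in ovary arrays, with no overlap. The difference was 1.81 (SE 0.205, 3.51-fold; limma, Benjamini-Hochberg adjusted p = 4.9e-09). At BCP the organs differed by less than the spread of the arrays, with 7.17, 7.21 and 7.13 in stigma and 7.42, 7.002 and 7.21 in ovary. The difference at TCP exceeded that at BCP by 1.85 (SE 0.29; limma, Benjamini-Hochberg adjusted p = 1.3e-05). A second probe set named FBP was dim in both organs, at 5.40, 5.26 and 5.84 in stigma and 5.41, 5.17 and 5.24 in ovary, and was not called, so the 2 probe sets of this gene disagree.

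petC, the Rieske subunit of cytochrome b6f, the chloroplast complex that passes electrons between the photosystems, was the named gene called lower. Its signal was 7.65, 7.94 and 7.98 in stigma arrays, against 10.74, 10.84 and 10.84 in ovary arrays. The groups lay far apart beside their own spread, with a difference of -2.95 (SE 0.21, 7.72-fold; limma, Benjamini-Hochberg adjusted p = 1e-13).

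The petC gap was present earlier than the XTH gap, which was called at BCP but not at TET or UNM. The difference was -0.95 at TET, -1.82 at UNM and -1.76 at BCP, and it was called at UNM and BCP (limma, Benjamini-Hochberg adjusted p = 6.8e-08 and 6.4e-08). At TET it missed the 2-fold minimum, and all 3 stigma arrays lay below all 3 ovary arrays. It widened by a further -1.19 at TCP (SE 0.30; limma, Benjamini-Hochberg adjusted p = 0.0047). A second probe set named petC was dim, at 3.41, 3.29 and 3.17 in stigma and 3.48, 3.71 and 3.16 in ovary, and was not called.

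**Figure D2:**
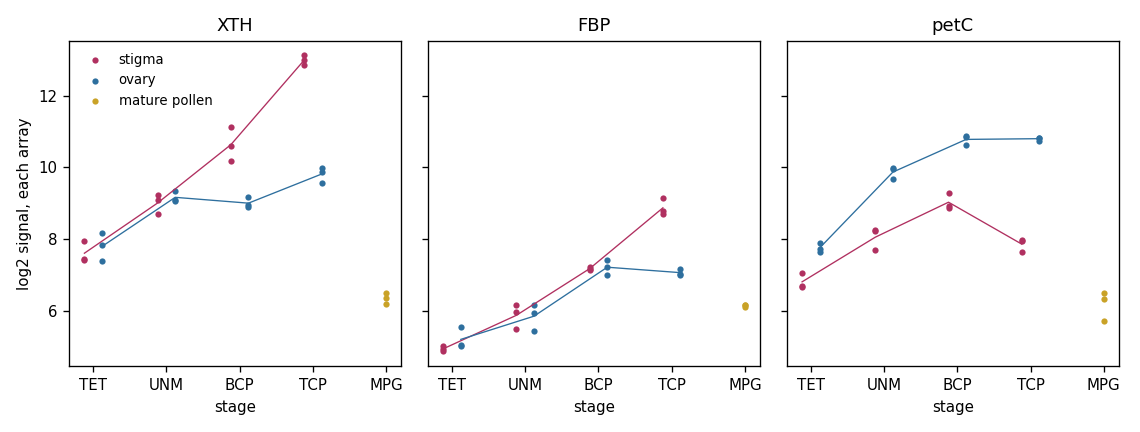
Log2 signal on each array (points) of XTH, FBP and petC in stigma and ovary at the tetrad (TET), uninucleate (UNM), bicellular (BCP) and tricellular (TCP) stages and in mature pollen (MPG), 3 arrays a group; lines join group means. XTH and FBP separate late with stigma above, and petC lies lower in stigma at every stage.

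The other 10 named genes were not called. Of the 13 named genes, 7 were dim in both organs at TCP. SAHH, an adenosylhomocysteinase that clears the by-product of methylation reactions, was bright in both, at 13.36, 13.35 and 13.26 in stigma and 13.80, 13.82 and 13.73 in ovary. The SAHH arrays did not overlap and the difference passed the p-value threshold but not the 2-fold minimum (-0.46, SE 0.15; limma, Benjamini-Hochberg adjusted p = 0.02). A second SAHH probe set averaged 13.12 in stigma and 13.54 in ovary. Its difference went from 0.615 at BCP to -0.42 at TCP, a called shift of -1.04 (SE 0.24, limma, Benjamini-Hochberg adjusted p = 0.0018). The first probe set had a difference of 0.29 at BCP, and its shift of -0.75 missed the 2-fold minimum. TUBA, an alpha-tubulin of the microtubules, read 13.56, 13.52 and 13.30 in stigma and 13.79, 13.84 and 13.83 in ovary at its bright probe set, a difference of -0.36. Its dim probe set averaged 4.98 in stigma and 4.46 in ovary, a difference of 0.52, so the 2 differ in sign. TBP1, the TATA-binding protein of the basal transcription machinery, averaged 9.89 in stigma and 10.07 in ovary, and the difference was not significant (-0.18, SE 0.13; limma, Benjamini-Hochberg adjusted p = 0.34).

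CAT1, a catalase that breaks down hydrogen peroxide, lay close to the call threshold at a dim level. It read 5.23, 4.18 and 4.95 in stigma and 5.60, 6.05 and 5.34 in ovary, so that the groups did not overlap but the stigma arrays were widely spread. Its difference was -0.88 (SE 0.31; limma, Benjamini-Hochberg adjusted p = 0.031), and it reached the 2-fold minimum without stigma replicate 1 (-1.10) or without ovary replicate 3 (-1.04). A second CAT1 probe set went the other way at a dim level, at 4.76, 4.40 and 4.65 in stigma and 4.19, 4.49 and 4.23 in ovary, and its difference was not significant (0.30, SE 0.17; limma, Benjamini-Hochberg adjusted p = 0.21). GAPN, the non-phosphorylating glyceraldehyde-3-phosphate dehydrogenase, which makes NADPH in the cytosol, averaged 4.98 in stigma and 5.68 in ovary. The dehydrin COR410, a protein of cold and drought responses, the thionins THI1.1, THI1.2 and TTHV, small antimicrobial proteins, and the phosphofructokinase PFK were dim in every one of the 13 groups of the series, with stigma TCP means between 3.05 and 4.48 at their brighter probe sets. A second THI1.1 probe set averaged 3.74 in stigma and 3.31 in ovary.

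The largest differences belonged to probe sets for which the platform table has no gene name, given here by their identifiers. Ta.22678.2.S1_a_at read 13.19, 13.47 and 13.40 in stigma and 3.38, 3.39 and 4.05 in ovary. It was thus bright on every stigma array and dim on every ovary array, with a difference of 9.74 (SE 0.30; limma, Benjamini-Hochberg adjusted p = 3.4e-23). It was dim in both organs at TET and UNM, with UNM values of 3.46, 3.10 and 3.28 in stigma and 3.38, 3.12 and 3.12 in ovary. At BCP it read 6.97, 7.83 and 8.21 in stigma, against 3.50, 3.59 and 3.53 in ovary, and it averaged 3.37 in mature pollen.

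TaAffx.12611.1.S1_at was nearly as far apart, with 12.92, 13.03 and 13.29 in stigma and 3.31, 3.47 and 3.45 in ovary, a difference of 9.67 (SE 0.33; limma, Benjamini-Hochberg adjusted p = 2.5e-22). Unlike Ta.22678.2.S1_a_at, it was as bright in pollen as in stigma: mature pollen read 13.21, 13.25 and 13.22, and anthers at TCP read 12.86, 12.89 and 12.96. In stigma it was dim at UNM, at 2.76, 2.76 and 2.83, and it read 7.75, 8.84 and 9.14 at BCP. Both probe sets had a larger gap at TCP than at BCP, by 5.61 for Ta.22678.2.S1_a_at and 4.28 for TaAffx.12611.1.S1_at (limma, Benjamini-Hochberg adjusted p = 6e-12 and 1.3e-08).

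Ta.7378.35.S1_x_at, which the table lists under the bare locus symbol LOC543184, had the largest difference in the other direction. It read 3.77, 4.33 and 4.68 in stigma and 12.04, 12.01 and 12.23 in ovary, a difference of -7.83 (SE 0.18; limma, Benjamini-Hochberg adjusted p = 7.5e-26). At UNM it was bright in both organs, at 12.92, 13.30 and 12.87 in stigma and 12.75, 12.59 and 13.06 in ovary. Both organs thus read lower at TCP than at UNM, stigma by far the more. TaAffx.2026.1.S1_at read 3.70, 3.37 and 6.92 in stigma and 11.94, 12.23 and 11.77 in ovary. Its stigma replicate 3 stood well above the other two, and the difference of -7.32 (SE 0.55) became -8.45 without that array.

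Ta.7378.35.S1_x_at was not alone in its cluster, the group of probe sets that share a Ta number because they were designed to related sequences. The 3 clusters described next were picked after their values were seen, and their probe sets share sequence, so they are not independent measurements. Of all probe sets whose identifiers begin with such a Ta number, 10.3% were called lower and 7.9% higher. In cluster Ta.7378, 35 of 38 probe sets were called lower in stigma and 0 higher, and the cluster's median signal was 6.94, 6.99 and 8.19 in the stigma arrays and 11.88, 11.85 and 12.002 in the ovary arrays. In cluster Ta.10329, 34 of 39 were called lower, with medians of 7.36, 7.26 and 7.75 in stigma and 11.21, 11.15 and 11.29 in ovary. In cluster Ta.27657, 13 of 14 were called lower, with medians of 6.04, 6.01 and 8.10 in stigma and 12.58, 12.45 and 12.64 in ovary.

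Stigma replicate 3 was the highest stigma array in all 3 clusters, and lay below every ovary array. The clusters were picked for their many probe sets called lower on these arrays, so this lack of overlap adds no support. These clusters were bright in stigma earlier, with BCP medians of 11.60 for Ta.7378, 11.05 for Ta.10329 and 12.02 for Ta.27657. Among 6160 clusters with at least 2 probe sets, 850 had a higher member, 1039 had a lower one and 11 had both. At least 2 higher members and no lower one were found in 491, and at least 2 lower members and no higher one in 527. At most 6 higher probe sets fell in 1 cluster, while 4 clusters had at least 10 lower ones.

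The 2 clusters with those 6 higher probe sets, picked in the same way, were Ta.1422 and Ta.3164. In Ta.1422 all 6 probe sets were called higher, and the cluster's median was 9.18, 9.11 and 9.13 in the stigma arrays and 7.65, 7.51 and 7.71 in the ovary arrays. In Ta.3164, 6 of 7 were called higher, with medians of 12.43, 12.36 and 12.58 in stigma and 10.40, 10.29 and 10.37 in ovary. Over all probe sets with a Ta number, 7.9% were called higher. The arrays of the organs did not overlap in either cluster, which the way they were picked favours. At TET the medians of Ta.1422 were 6.71 in stigma and 6.98 in ovary, and those of Ta.3164 were 10.73 in stigma and 10.91 in ovary. In mature pollen Ta.1422 was at 4.25 and Ta.3164 at 7.84.

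Stage by stage, the probe sets higher at TCP had rising medians in stigma and nearly level ones in ovary after TET. Their median signal in stigma was 6.12 at TET, 6.96 at UNM, 7.60 at BCP and 8.74 at TCP, and in ovary it was 6.08, 6.78, 6.76 and 6.79 at the same stages. For the probe sets lower at TCP, the stigma medians were 7.69, 7.75, 7.30 and 6.05, and the ovary medians 8.02, 8.18, 8.31 and 8.12. Since these lists were chosen on the TCP arrays, their TCP values describe the choice, and within an organ stage and kit cannot be told apart between TET and UNM or between BCP and TCP. Over all 61179 probe sets the medians lay between 4.85 and 4.90 in both organs at every stage.

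**Figure D3:**
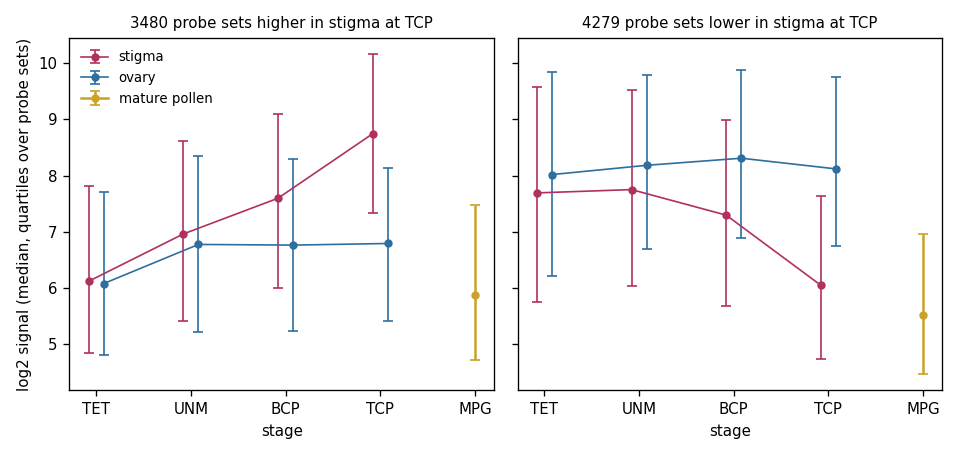
Median log2 signal, with quartiles over probe sets, of the 3480 probe sets higher (left) and the 4279 lower (right) in stigma at the tricellular stage, in stigma and ovary at 4 stages and in mature pollen (MPG). From UNM on, stigma leaves a nearly level ovary line upward on the left and downward on the right.

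The group means of the earlier stages come from other arrays than those compared at TCP, although all arrays shared 1 estimate of the spread. At BCP 1862 probe sets (3.04%) were higher in stigma and 2354 (3.85%) lower, together 6.89%. At UNM these were 676 (1.1%) and 1214 (1.98%), together 3.09%, and at TET 430 (0.703%) and 685 (1.12%), together 1.82%. Of the 3480 probe sets higher at TCP, 193 were higher at TET (5.55% of the list, and 44.9% of those higher at TET), 380 at UNM (10.9%, and 56.2%) and 1093 at BCP (31.4%, and 58.7%). Of the 4279 lower at TCP, 329 were lower at TET (7.69% of the list, and 48% of those lower at TET), 630 at UNM (14.7%, and 51.9%) and 1643 at BCP (38.4%, and 69.8%). Each share of the list was above that stage's share of all probe sets. With the arrays scaled on the hybridisation controls the split turned at 2 stages, to 2363 higher and 1919 lower at BCP and 1028 higher and 398 lower at TET. The shares of the TCP lists were then 39.6% of the higher and 29.5% of the lower list at BCP, and 11.5% and 4.46% at TET, again above those of all probe sets (3.86% and 3.14% at BCP, 1.68% and 0.651% at TET).

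Calls in the opposite direction were fewer than calls in the same direction at each stage. Of the higher list, 101 were lower at TET (2.9%, against 1.12% of all tested), 127 at UNM (3.65%, against 1.98%) and 52 at BCP (1.49%, against 3.85%). Of the lower list, 74 were higher at TET (1.73%, against 0.703% of all tested), 37 at UNM (0.865%, against 1.1%) and 46 at BCP (1.08%, against 3.04%). The stigma mean was above the ovary mean at BCP for 2964 of the higher list (85.2%), against 53.9% of all probe sets. At all 4 stages, 117 probe sets were higher in stigma each time and 257 lower each time. At no earlier stage were 2326 of the higher list (66.8%) called higher, nor 2563 of the lower list (59.9%) called lower. The matching share of all tested is not given here, but few were called at any of these stages. Those called higher were 0.703% at TET, 1.1% at UNM and 3.04% at BCP, and those called lower 1.12%, 1.98% and 3.85%. A lack of earlier calls is thus common among all probe sets and does not date a difference.

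The difference between organs itself shifted from BCP to TCP. It was higher at TCP than at BCP for 2216 probe sets (3.62%) and lower for 2678 (4.38%). This test compares each organ with the other organ of its own stage and kit. The organs were not alike in control gaps at BCP. There the 3' to 5' gap of sucrose synthase was 7.49 to 7.89 in stigma and 8.42 to 8.63 in ovary. That of ubiquitin was -1.85 to -1.38 in stigma and -1.26 to -0.92 in ovary, while that of the glucose-6-phosphate dehydrogenase control overlapped. The part of these gaps in the shift was not tested. With the arrays scaled on the hybridisation controls, the same test gave 1468 and 4088.

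Pollen grains might be present on or near a stigma close to shedding, so the higher probe sets were set against mature pollen. Of the 3480 higher in stigma, 673 (19.3%) were also bright in mature pollen, with a mean of at least 8 there. The same share was 13.5% of the lower probe sets (577), 8.41% of those not called (4491) and 9.38% of all tested (5741). Another 1832 of the higher probe sets (52.6%) were dim in mature pollen, against 68.2% of all tested, and 975 lay between. Of the 673, 613 (91.1%) were also bright in anthers at TCP, against 81.3% of all probe sets bright in pollen, and 416 (61.8%) were bright in stigma at BCP, close to the 56.5% of all probe sets bright in pollen. The count moved with the scaling. On the hybridisation controls it was 442, which was 15% of the higher probe sets, against 6.68% of all tested. On the brighter 50% of probe sets it was 921, or 23.7%, against 12.1% of all tested. The mean shift subtracted from the mature pollen arrays was 0.585 in the first scaling and -0.398 in the second, while the level of 8 stayed fixed. As deposited, bright probe sets made up 9.29% to 9.64% on mature pollen arrays and 15.92% to 16.24% on stigma TCP arrays. The level of 8 was thus a stricter cut by rank in pollen than in stigma.

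The 673 probe sets were not of one kind in the other organs. In ovary, 319 were bright, 242 lay between 6 and 8 and 112 were dim. In stigma, 547 were bright and 28 were dim, and for 380 the signal in mature pollen was above that in stigma. TaAffx.12611.1.S1_at, bright in stigma and pollen and dim in ovary, belongs to the 112, whereas XTH, Ta.22678.2.S1_a_at and FBP were below the level of 8 in pollen.

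Probe sets brighter in stigma were more often bright in mature pollen. The share ran from 1.83% of all those under 6 in stigma to 56.5% of those at 12 or more. Shares were therefore also compared at like levels in stigma. At a like stigma level the lists still differ in ovary level by definition, higher ones reading lower there and lower ones higher. The shares below therefore cannot separate the list from the level in ovary. Among probe sets with a stigma mean of at least 10, 281 of 967 higher ones (29.1%) were bright in mature pollen, against 199 of 304 lower ones (65.5%) and 1099 of 1950 not called (56.4%). At 12 or more the share was 28.3% of 251 higher probe sets and 74.9% of 311 not called. In every band from 6 upward the higher probe sets had the smaller share of these 2 lists. Under 6 the order turned, with 9.24% of 303 higher probe sets and 1.67% of 37943 not called. With the arrays scaled on the hybridisation controls the shares at 10 or more were 20.7% of the higher and 43.5% of those not called, and scaled on the brighter 50% of probe sets they were 34.5% and 63.6%.

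**Figure D4:**
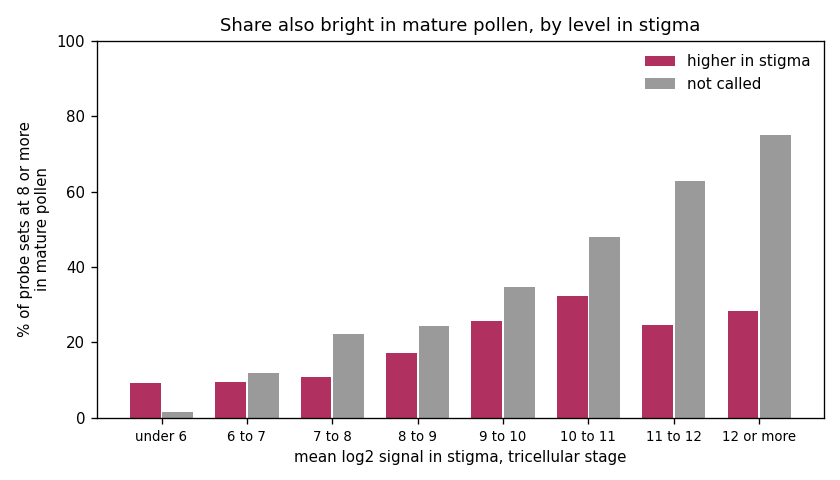
Percentage of probe sets with a mean log2 signal of at least 8 in mature pollen, by mean level in stigma at the tricellular stage, for probe sets called higher in stigma and those not called. The higher list has the smaller share in each band from 6 upward (28.3% against 74.9% at 12 or more) and the larger one under 6. By definition the higher probe sets read at least 1 lower in ovary than in stigma, so the bands do not equalise the level in ovary.

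Transcripts abundant in pollen and dim in the young pistil were read next. A set of 376 probe sets, picked after the data were seen, had a mean of at least 10 in mature pollen and under 6 in stigma and ovary at TET, UNM and BCP. Their median signal was 4.57, 4.56 and 4.46 in the stigma arrays at TCP, against 4.17 to 4.25 in the ovary arrays and 12.12, 12.14 and 12.06 in the pollen arrays. All 3 stigma arrays were thus above all 3 ovary arrays, by a small step at a dim level. Stigma exceeded ovary for 303 of the 376 (80.6%), against 56.3% of all tested, and the median difference was 0.27. At TCP, 332 were dim in stigma and 367 in ovary, and 1 was bright in stigma and 0 in ovary, with highest means of 8.59 in stigma and 7.63 in ovary.

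Of these 376 probe sets, 44 (11.7%) were called higher in stigma, against 5.69% of all tested, and 1 was called lower. The other 629 of the 673 higher probe sets that were bright in pollen lay outside the set. The array's actin controls, each of whose 4 probe sets had its highest means over the 13 groups in mature pollen and anthers at TCP, were read beside them. The 3' actin probe set averaged 5.20 ± 0.37 in stigma, 4.52 ± 0.22 in ovary and 14.07 in mature pollen, and the M probe set 7.15 in stigma, 6.65 in ovary and 13.61 in mature pollen (n = 3 each). The M_x probe set averaged 6.16 in stigma and 5.78 in ovary. The 5' probe set averaged 6.04 in stigma and 6.10 in ovary, so the 4 actin probe sets did not all have stigma above. Stigma already averaged higher than ovary at BCP. The means there were 4.99 against 4.57 (3'), 5.95 against 5.83 (5'), 6.82 against 6.05 (M) and 5.75 against 5.21 (M_x).

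**Figure D5:**
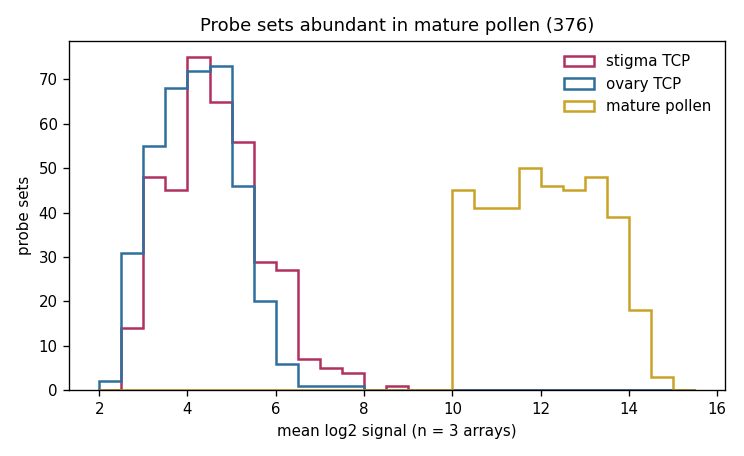
Number of probe sets by mean log2 signal (n = 3 arrays) for 376 probe sets abundant in mature pollen and dim in stigma and ovary before the tricellular stage. In stigma and ovary at the tricellular stage most lie under 6 (332 and 367 of 376), with stigma shifted slightly upward, and in pollen they lie at 10 or more.

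The 2 probe sets with the strongest signal in mature pollen were picked from those called higher, so their step is given by the choice. Both are among the 44 called higher of the 376, and do not stand for the whole set. Ta.23693.1.S1_at read 8.74, 8.50 and 6.73 in stigma and 5.47, 4.01 and 4.56 in ovary, against 14.99, 14.91 and 15.02 in mature pollen. Stigma replicate 3 was the lowest of the stigma arrays, and ovary replicate 1 the highest of the ovary arrays. The difference was 3.31 (SE 0.93; limma, Benjamini-Hochberg adjusted p = 0.005), and its excess over BCP, 3.56, was not significant (SE 1.31; limma, Benjamini-Hochberg adjusted p = 0.069).

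Ta.20678.1.S1_at read 6.92, 6.74 and 5.74 in stigma and 4.08, 3.90 and 3.93 in ovary, against 14.89, 14.84 and 14.81 in mature pollen. The difference was 2.50 (SE 0.32; limma, Benjamini-Hochberg adjusted p = 5.5e-08). Both probe sets were dim in stigma at UNM and BCP, which membership of the set of 376 requires. At TET, stigma replicate 3 read 7.77 for Ta.23693.1.S1_at and 5.65 for Ta.20678.1.S1_at, while the other stigma arrays of that stage read 3.93 and 4.39 for the first and 3.96 and 3.59 for the second.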

How the data were processed

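The deposited log2 values came from the authors' run of RMA, which the submitters' processing notes name without a version; whether all 39 arrays entered that run is not given in the sources used here. This method brings arrays towards a common distribution, so differences are relative to each array's other probe sets. The deposited values still differed in distribution, with fewer bright probe sets on mature pollen arrays. From 61290 probe sets, the 111 with the AFFX prefix were left out of the tests, and 64 reporter probe sets stayed in. limma 3.58.1 in R 4.3.3 fitted a mean for each of 13 groups, with 26 residual and 7.5 prior degrees of freedom. It was tested on simulated data. Levels are means of log2 values. The number of arrays limits the precision. An old platform annotation named 13 genes through 19 probe sets; its other 758 symbols were locus numbers, so the planned gene lists had too few members to describe. Per gene, the text gives its brightest probe set on average over the 39 arrays (and any second one, as values), and, of unnamed probe sets, the 2 most different per direction and the 2 brightest in mature pollen among those higher. No sequences were used. The comparison, lists and genes were chosen with earlier results of these data known. Alternatives were 2 scalings, a filter on dim probe sets, other fits and thresholds, and leaving out each array. Deviations of stigma and ovary arrays with the same number correlated at -0.06, -0.10 and -0.03 at TCP. At BCP these correlations were 0.08, 0.44 and 0.06. No label pairs the arrays by number, so the numbers were not read as pairs, and a block on them was an alternative.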

Additional observations from a re-analysis of the deposited data

Results flagged for a closer look

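The gap between stigma and ovary differed between BCP and TCP for the following probe sets, by limma's test of the difference of differences with the 2-fold minimum. It was larger at TCP by 1.55 for XTH, 1.85 for FBP, 5.61 for Ta.22678.2.S1_a_at, 4.28 for TaAffx.12611.1.S1_at and 2.46 for Ta.20678.1.S1_at. It moved downward by -1.19 for petC, -6.24 for Ta.7378.35.S1_x_at, -4.01 for TaAffx.2026.1.S1_at and -1.04 for the second SAHH probe set. Over all probe sets it was higher at TCP for 2216 and lower for 2678. The kits changed between BCP and TCP but were shared by both organs within each stage.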

How the results depend on the processing

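XTH and petC kept direction and call under all alternatives run, and FBP under all but a minimum of 2 on the log2 scale, which its difference of 1.81 does not reach. The counts at TCP without any 1 array ran from 3387 to 3634 higher, 4202 to 4415 lower and 642 to 696 bright in mature pollen. With no minimum difference they were 9373, 9064 and 1747, and with a minimum of 2 on the log2 scale 1096, 1432 and 159. Pollen levels of 7 and 10 gave 1053 and 316. Over all tested, 1875 probe sets had a mean of at least 10 in mature pollen, and the number at 7 is not given here. Scaled on the hybridisation controls, which moved stigma minus ovary by -0.12, they were 2944, 4952 and 442, and scaled on the brighter 50% of probe sets, which moved it by 0.08, 3884, 3912 and 921. A mean of at least 6 over all arrays left 21307 probe sets, with 2416 higher and 3267 lower.

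The shift from BCP to TCP covered 2050 to 2383 probe sets higher and 2434 to 3075 lower without any 1 array, 3857 and 4428 with no minimum, 570 and 626 with a minimum of 2, and 1468 and 4088 on the hybridisation controls; the cause was not tested. Without any 1 array the counts at BCP were 1531 to 2386 higher and 2203 to 2521 lower, at UNM 580 to 753 and 1073 to 1352, and at TET 406 to 485 and 646 to 754. The hybridisation controls turned the split at BCP to 2363 and 1919 and at TET to 1028 and 398. The alternatives at the earlier stages and for the clusters were added after seeing the data.

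With the replicate number as a block the counts were 3501, 4292 and 678 at TCP, 2355 and 2745 for the shift, 1844 and 2379 at BCP, 631 and 1130 at UNM, and 449 and 700 at TET. At TCP, 0 of 3 stigma arrays correlated best with the ovary array of their own number. Signals near background limit the dim probe sets.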
